A study of Mus musculus with 4 samples.

Results

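RANKL-treated control cells were compared with control cells given M-CSF alone, to describe which genes stood apart after 24 h beyond the classic osteoclast markers. All 10607 genes with at least 1 FPKM in either library were taken as members, of 23920 genes in the deposited table, after the transcripts of each gene had been summed. FPKM is a level corrected for transcript length and library size, so that levels of different genes can be set side by side. The cells were bone marrow-derived macrophage-like cells (BMMs) of C57BL/6 mice, which were labelled male and 8 weeks old. They came from *Stat5* fl/fl littermates, which carried floxed *Stat5a* and *Stat5b* but no Cre and had received poly I:C in the same way as the Mx1-Cre knockout mice of the study. Bone marrow cells were kept in M-CSF for 3 days, non-adherent cells were removed, and the rest was cultured with M-CSF (30 ng/mL) alone or with M-CSF and RANKL (100 ng/mL). The study held 2 more libraries, in which IL-3 (1 ng/mL) was added to RANKL, 1 of control cells and 1 of conditional knockout (cKO) cells that had lost *Stat5a* and *Stat5b*. Mx1-Cre is driven by an interferon-inducible promoter and deletes in most blood cells, so that these cKO cells are not an osteoclast-specific model.

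Osteoclasts are multinucleated bone-resorbing cells that form by fusion of precursors of the monocyte and macrophage lineage. M-CSF keeps these precursors alive and dividing, and RANKL binds its receptor RANK, engages TRAF adaptors and activates NF-kB and AP-1, which lead to the induction of NFATc1. Mature osteoclasts seal off a patch of bone, acidify it with a vacuolar proton pump and digest it with secreted enzymes.

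There was 1 library per condition. Each ratio given here therefore describes a pair of libraries and has no replicate check, and no test between conditions or p-value was computed. Ratios are log2 values of (FPKM + 1) with RANKL over M-CSF, which understate differences of genes with low levels, and a gene was called higher or lower at 2-fold or more on this scale. The estimated depth was 33.1 M fragments with M-CSF and 35.3 M with RANKL, and counting error alone gave the log2 ratios of the 1294 called genes with known transcript lengths a 95% half-width of at most 0.37. This half-width covers neither culture nor mouse differences. The sex label did not match the data: *Xist*, which is transcribed from the inactive X chromosome of females, stood at 31.9 to 47.0 FPKM in all 4 libraries, while *Ddx3y*, *Eif2s3y*, *Kdm5d* and *Uty* of the Y chromosome were listed at 0 in all of them.

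The cell type label of every sample was osteoclast, but the title of the one with M-CSF alone called it an osteoclast precursor. Of 14 measured osteoclast marker genes, 10 were higher with RANKL and 0 were lower (median log2 ratio 3.86), whereas of 14 macrophage markers 13 were lower and 0 were higher (median -2.19). The integrin subunit gene *Itgb3* stood at 1.38 FPKM under M-CSF and 0.818 FPKM under RANKL, and the calcitonin receptor gene *Calcr* was listed at 0, so these late osteoclast markers were absent or near 0 with RANKL. *Cd68*, a macrophage marker that osteoclasts also carry, was at 972 and 757 FPKM. All 11 neutrophil markers measured were below 0 and none reached 2-fold (median -0.75), with their summed level at 1339 FPKM under M-CSF and 767 FPKM under RANKL. Among dendritic cell, mast cell, lymphocyte and stromal markers, 1, 0, 2 and 1 genes reached 1 FPKM, and none of them was called. Of 2 erythroid and megakaryocyte markers measured, *Pf4*, a chemokine gene, was lower (657 and 115 FPKM). In bulk samples, fewer cells of a type and less RNA per cell cannot be told apart, which holds for every decrease reported here.

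In all, 585 genes (5.52% of those compared) were higher with RANKL and 740 genes (6.98%) were lower. The higher genes had mostly been at low levels, with a median of 5.01 FPKM under M-CSF and 18.5 FPKM under RANKL, and 146 of them were below 1 FPKM with M-CSF. The lower genes started from a median of 20.7 FPKM and stood at 6.07 FPKM with RANKL, and 111 of them ended below 1 FPKM. At 4-fold or more, 124 genes were higher and 162 were lower. Over all genes the median log2 ratio was 0.14, and 6508 of the 10607 genes had ratios above 0. List medians and counts of ratios above 0 are to be read against these values. Counts of higher and lower genes in each list are likewise to be read against the shares of 5.52% and 6.98%. The lists were chosen with earlier results of these data known, so their shares describe the listed genes and not whole classes of genes. Scaling the libraries to a median of 0 turned the split into 431 higher and 952 lower genes, so that the balance between both directions depends on the scaling. Just inside the threshold stood *Tsix* and *Nt5dc3* on the higher side and *Lrp1* and *Tspan33* on the lower side, and just outside it were *Ftsj3*, *Cd109*, *Siglece* and *Xylt1*. Some of the most abundant transcripts took up less of the RANKL library: *Ftl1*, the ferritin light chain, held 3.83% of the summed FPKM with M-CSF and 1.96% with RANKL, and *Lyz2*, the macrophage lysozyme, held 3.80% and 1.41%.

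**Figure D1:**
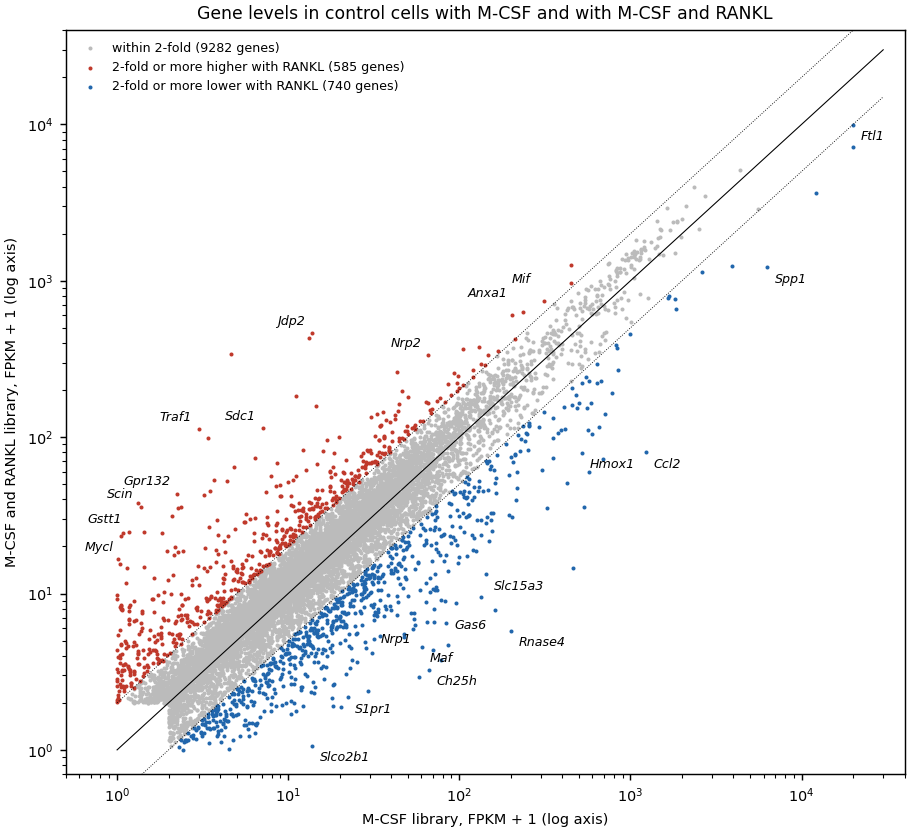
Levels of the 10607 genes compared, as FPKM + 1 on log axes, with M-CSF on the x axis and with M-CSF and RANKL on the y axis, 1 library each. The solid line marks equal levels and the dotted lines 2-fold differences. The 585 higher genes (red) reach down to the left edge, where M-CSF levels are near 0, and the 740 lower genes (blue) include very abundant ones such as *Ftl1* and *Spp1*.

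Among transcription factor genes, members of the AP-1, NF-kB and NFAT families were higher with RANKL and factors known to restrain osteoclasts were lower. Of 163 transcription factor genes in the lists used, 26 were higher and 28 were lower. *Jdp2*, an AP-1 partner that osteoclasts need, stood at 12.8 FPKM under M-CSF and 462 FPKM under RANKL (log2 ratio 5.07), the third highest ratio of all named genes after *Ctsk* and *Traf1*. Of 11 AP-1 genes, *Jdp2*, *Fosl2*, *Fos* and *Junb* were higher. *Fosl2* was at 11.1 and 82.2 FPKM, *Fos* at 42.0 and 262 FPKM, and *Junb* at 48.9 and 179 FPKM. The family did not move as a whole: *Atf3*, a stress-induced repressor, stood at 52.7 FPKM under M-CSF and 4.94 FPKM under RANKL, *Batf3* at 2.81 and 0.432 FPKM, and *Jun* itself at 57.0 and 31.1 FPKM, which is within 2-fold.

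NF-kB genes differed between branches. Of 11 genes on the list of NF-kB subunits and inhibitors, 6 were higher and 0 were lower (median 1.10). The subunits of the non-canonical branch, *Nfkb2* (15.8 FPKM under M-CSF and 95.4 FPKM under RANKL) and *Relb* (6.65 and 26.4 FPKM), were higher. The canonical subunits *Nfkb1* (30.2 and 43.4 FPKM) and *Rela* (32.7 and 37.4 FPKM) were within 2-fold. The inhibitor genes *Nfkbia* (45.2 and 198 FPKM) and *Nfkbie* (3.22 and 20.6 FPKM) were higher, whereas *Nfkbib* (12.6 and 14.03 FPKM) was not. *Nfkbid* (8.60 and 19.5 FPKM) and *Bcl3* (11.8 and 29.8 FPKM), also counted on this list, were higher. *Traf1*, which encodes an adaptor of TNF receptors and is a known NF-kB target, stood at 2.02 FPKM under M-CSF and 112 FPKM under RANKL (log2 ratio 5.22), and *Birc3*, an inhibitor of apoptosis that binds TRAF proteins, at 7.60 and 67.3 FPKM. *Traf6*, the adaptor that RANK itself uses, was at 6.11 and 7.97 FPKM, and *Tnfrsf11a*, which encodes RANK, at 35.8 and 61.4 FPKM, both within 2-fold.

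The sequences 250 bases upstream of *Nfkb2* and *Nfkbia* are shown because both genes were higher and both hold the letters of an NF-kB motif close to a transcription start. They are from RefSeq on GRCm38.p6, the assembly also called mm10, and are printed 5′ to 3′ on the strand of the gene, with the letters GGGNNTTTC on either strand in capitals. The first lies at chr19:46304487-46304736 (+ strand) ahead of one of the *Nfkb2* starts, and the second at chr12:55492648-55492897 (- strand).
Nfkb2: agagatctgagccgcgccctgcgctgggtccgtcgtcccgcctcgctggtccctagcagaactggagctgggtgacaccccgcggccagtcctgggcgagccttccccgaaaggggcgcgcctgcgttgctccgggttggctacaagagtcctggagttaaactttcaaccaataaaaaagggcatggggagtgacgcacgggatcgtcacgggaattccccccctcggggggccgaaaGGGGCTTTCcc
Nfkbia: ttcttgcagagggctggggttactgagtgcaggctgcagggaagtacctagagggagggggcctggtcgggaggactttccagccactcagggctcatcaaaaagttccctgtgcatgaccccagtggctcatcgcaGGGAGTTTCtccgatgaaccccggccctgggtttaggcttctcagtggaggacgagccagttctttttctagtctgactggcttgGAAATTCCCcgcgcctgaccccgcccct
The motif starts 11 bases before the *Nfkb2* start, and 113 and 28 bases before the *Nfkbia* start. Of 8607 compared genes with such a window in RefSeq, from 250 bases before to 50 bases after a start, 4.32% held these letters. The share was 6.48% among 463 higher genes and 3.85% among 571 lower genes with a window. The AP-1 letters TGANTCA were in 7.78% of higher, 8.41% of lower and 4.83% of all windows, so they were more frequent in both directions. The E-box CACGTG was in 14.5% of higher, 7.18% of lower and 10.8% of all windows, the PU.1 letters GAGGAAGT in 3.24%, 6.83% and 3.46%, and the interferon response letters GAAANNGAA in 7.34%, 10.5% and 7.34%. Each motif was read on either strand, and no other one overlapped the capitals printed here. These shares describe letters in a window and carry no evidence of binding.

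Several more factor genes were higher with RANKL, and some of them had little or no transcript in M-CSF cells. *Mycl*, which encodes L-Myc, stood at 0.0553 FPKM under M-CSF and 22.4 FPKM under RANKL (log2 ratio 4.47). *Prdm1*, which encodes the repressor Blimp1, was at 0.838 and 23.5 FPKM, and *Bhlhe40*, a helix-loop-helix repressor, at 5.38 and 72.9 FPKM. *Gfi1b*, a zinc finger repressor known from red cells and platelets, was at 0.0729 and 6.96 FPKM. *Ppargc1b*, the coactivator PGC-1beta of mitochondrial genes, was at 0.876 and 9.30 FPKM, and *Myc* at 38.4 and 124 FPKM. Of the repressor pair *Bhlhe40* and *Bhlhe41*, the second went the other way, with 6.96 FPKM under M-CSF and 0.961 FPKM under RANKL. *Spi1*, which encodes the myeloid factor PU.1, was at 268 and 403 FPKM, within 2-fold. *Nr1d1*, the clock repressor Rev-erb alpha, was at 1.55 and 5.62 FPKM, and *Nr1h3*, the oxysterol receptor LXR alpha, at 3.34 and 7.84 FPKM.

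Of 11 genes of factors known to restrain osteoclasts, 7 were lower, 0 were higher and all had ratios below 0 (median -1.89). *Id3*, an inhibitor of helix-loop-helix factors, stood at 126 FPKM under M-CSF and 28.5 FPKM under RANKL, and *Klf2* at 30.6 and 7.53 FPKM. *Maf*, a macrophage factor, was at 59.8 and 3.58 FPKM (log2 ratio -3.73). Lower factors outside that list belonged to several families. The ETS genes *Etv5* (42.2 and 6.34 FPKM), *Ets2* (76.2 and 16.8 FPKM) and *Fli1* (19.0 and 5.21 FPKM) were among them. *Epas1*, the oxygen-regulated factor HIF-2 alpha, stood at 53.7 and 5.84 FPKM, while its relative *Hif1a* was at 36.9 and 31.2 FPKM. *Lyl1*, a blood-forming helix-loop-helix factor, was at 15.3 and 1.83 FPKM, and *Rxra*, a partner of many nuclear receptors, at 20.7 and 5.08 FPKM. Of 12 IRF and STAT genes measured on their list, *Irf5* (142 and 68.9 FPKM) and *Stat2* (15.1 and 6.37 FPKM) were lower and 0 were higher. That list does not hold every IRF gene, as another lower one was counted with the factors that restrain osteoclasts. *Stat5a* (9.89 and 10.8 FPKM) and *Stat5b* (10.8 and 7.80 FPKM), the floxed genes, were present in both control libraries. The other factor lists gave 2 higher and 0 lower of 4 NFAT genes, 4 and 1 of 10 factors that promote osteoclasts (median 0.30), 2 and 4 of 18 MiT and ETS factors, 2 and 2 of 14 nuclear receptors, 3 and 2 of 18 KLF, EGR and small MAF genes, 1 and 4 of 20 helix-loop-helix, clock and oxygen factors, 0 and 1 of 16 stress and lipid factors, and 2 and 3 of 18 other lineage factors.

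**Figure D2:**
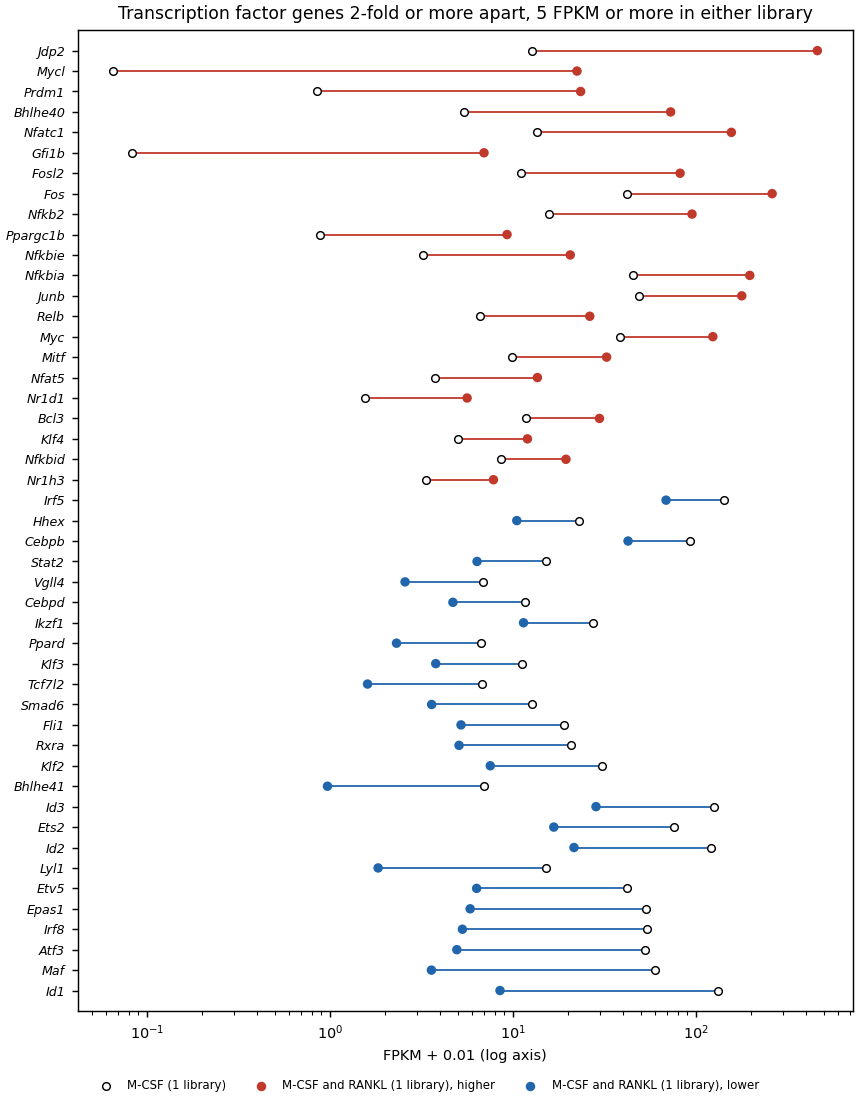
FPKM (log axis) of 47 listed transcription factor genes that were 2-fold or more apart and reached 5 FPKM in either library. Open circles show the M-CSF library and filled circles the RANKL library, 1 library each, sorted by ratio. *Mycl* and *Gfi1b* are near 0 with M-CSF, whereas *Jdp2* is highest with RANKL.

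For some regulators the ratio of the gene hid a change between its transcripts. These genes were picked after their values were seen, and shares of transcripts estimated from short reads carry an error that is not given in the table. *Nfatc1* had 6 transcripts. The one with the earliest start stood at 4e-06 FPKM under M-CSF and 97.3 FPKM under RANKL, and it made up 62.1% of the gene with RANKL. Transcripts that start 4.90 kb downstream made up the M-CSF level: one of them was at 6.53 and 41.5 FPKM and the others at 4.48 and 2.33 FPKM and at 2.56 and 1.84 FPKM. With IL-3 added, the earliest transcript was at 1.59 FPKM in control and 45.3 FPKM in cKO cells. *Rcan1*, a regulator of calcineurin, held equal parts of its 2 transcripts with M-CSF (7.51 and 7.43 FPKM). With RANKL the one that starts 66.1 kb downstream stood at 71.2 FPKM and the other at 9.18 FPKM. *Mitf*, a factor that acts with PU.1 on osteoclast genes, had a transcript starting 123 kb downstream that stood at 0.0012 FPKM under M-CSF and 16.2 FPKM under RANKL, while the transcript from the first start was at 9.78 and 15.9 FPKM. Of 1594 genes with several transcripts and at least 10 FPKM in both libraries, 208 had a transcript whose share differed by 10 points or more and 11 had one that differed by 30 points or more.

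**Figure D3:**
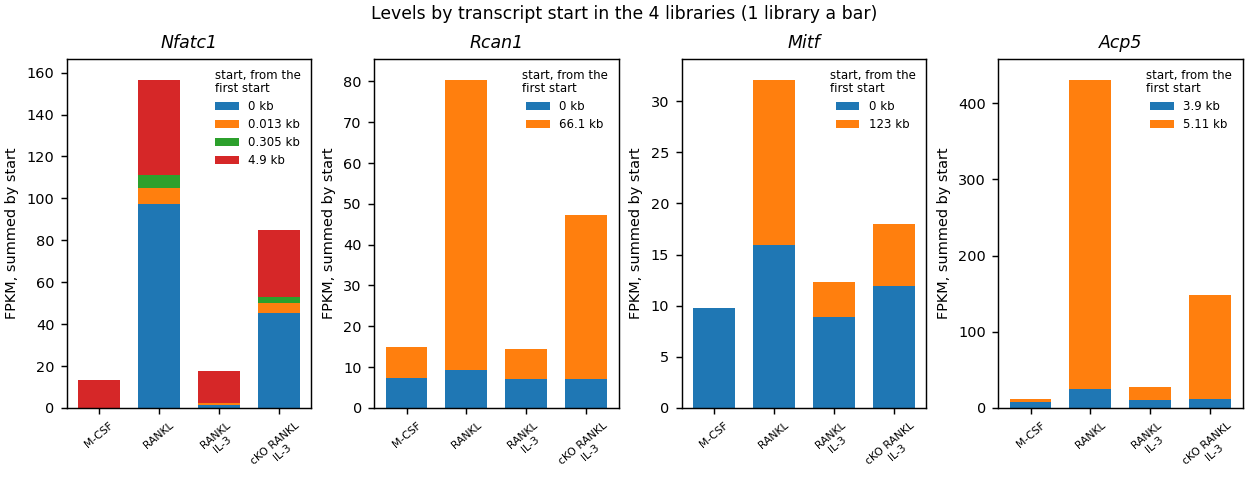
FPKM of *Nfatc1*, *Rcan1*, *Mitf* and *Acp5* in the 4 libraries, 1 library a bar, stacked by transcript start and given as the distance in kb from the gene's first annotated start (starts below 1 FPKM in all libraries are left out). The parts from the first start of *Nfatc1* and from the downstream starts of *Rcan1* and *Mitf* are tall with RANKL and small with M-CSF alone.

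Listed surface protein genes were lower more often than higher. Of 330 listed genes, 39 (11.8%) were higher and 106 (32.1%) were lower, against 5.52% and 6.98% of all genes. Of the higher genes named next, *Gpr132*, *Met* and *Cd82* are among those listed, whereas *Sdc1*, *Cav1*, *Slc6a4* and *Gfra2* are on no list and not in these counts. *Sdc1*, the heparan sulfate proteoglycan syndecan-1, stood at 6.16 FPKM under M-CSF and 113 FPKM under RANKL. *Gpr132*, a receptor linked to lysolipids, was at 1.25 and 42.6 FPKM (log2 ratio 4.28), *Cav1*, which coats caveolae, at 3.85 and 63.5 FPKM, and *Met*, the receptor of hepatocyte growth factor, at 0.960 and 17.7 FPKM. *Slc6a4*, the serotonin transporter, stood at 0.146 and 13.6 FPKM, and *Gfra2*, a receptor of the GDNF family, at 1.37 and 35.0 FPKM. The tetraspanin gene *Cd82* was at 11.7 and 60.6 FPKM, whereas *Cd81* was at 122 and 40.3 FPKM and *Cd9* at 396 and 395 FPKM.

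Some relatives with overlapping ligands stood apart in opposite directions. *Nrp2* stood at 64.7 FPKM under M-CSF and 333 FPKM under RANKL, and *Nrp1* at 64.1 and 5.54 FPKM. Both encode neuropilins, coreceptors for semaphorins and VEGFs, and they were nearly level with M-CSF alone. Plexin genes were uneven too, with *Plxna4* at 0.184 and 7.43 FPKM, *Plxnd1* at 30.7 and 68.0 FPKM and *Plxnc1* at 11.8 and 1.98 FPKM. Among semaphorins, *Sema4d*, a signal from osteoclasts to osteoblasts, was at 31.9 and 140 FPKM and *Sema7a* at 0.0465 and 4.85 FPKM, whereas *Sema4c* was at 9.42 and 1.05 FPKM. Of the 20 guidance and Notch genes measured, 6 were higher and 6 were lower. The ligand *Cd200* stood at 0.0533 and 6.96 FPKM and its receptor gene *Cd200r1* at 33.3 and 8.06 FPKM, so that the ligand was higher and its receptor was lower.

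Cytokine receptor genes gave 5 higher and 11 lower of 38. *Il2rg*, the shared gamma chain, stood at 43.4 FPKM under M-CSF and 162 FPKM under RANKL, while its specific partners *Il21r* (16.6 and 3.50 FPKM), *Il4ra* (20.3 and 6.64 FPKM) and *Il7r* (15.7 and 7.15 FPKM) were all lower. *Csf1r*, the receptor of M-CSF and IL-34, was at 670 and 227 FPKM, *Tgfbr2* at 76.9 and 22.3 FPKM, and *Mertk* at 10.8 and 1.42 FPKM. *Csf2rb2*, which encodes the IL-3 specific beta chain, was at 16.5 and 47.3 FPKM and the common beta chain *Csf2rb* at 32.2 and 64.2 FPKM, the latter just within 2-fold. The near-identical sequences of both beta chains make this split uncertain. *Il3ra* stood at 17.0 and 11.4 FPKM.

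Of 21 scavenger and phagocytic receptors, 14 were lower and 0 were higher, and all had ratios below 0 (median -1.28). *Cd36*, a receptor of oxidized lipids, was at 711 and 140 FPKM, *Msr1* at 781 and 191 FPKM and *Stab1* at 353 and 73.0 FPKM. Of 15 Toll-like receptors and partners, 7 were lower and 0 were higher (median -0.99), among them the endosomal *Tlr8* (24.1 and 2.63 FPKM), *Tlr13* (110 and 16.4 FPKM) and *Tlr7* (30.8 and 6.25 FPKM), whereas *Myd88* was at 37.5 and 45.9 FPKM. Of 17 chemoattractant receptors, 8 were lower and 0 were higher (median -0.86). *Ccr2* stood at 49.2 and 8.59 FPKM and *C5ar1* at 203 and 29.96 FPKM, while *Ccr1*, a receptor found on osteoclasts, was at 18.2 and 34.8 FPKM. *S1pr1*, which draws cells along sphingosine 1-phosphate towards the blood, stood at 21.4 and 1.16 FPKM (log2 ratio -3.37), and *S1pr2*, which repels them from it, at 24.5 and 12.9 FPKM, within 2-fold.

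Integrin subunits gave 2 higher and 5 lower of 13. *Itgav*, the partner of *Itgb3* in the vitronectin receptor, stood at 27.3 FPKM under M-CSF and 68.3 FPKM under RANKL and *Itgb7* at 11.3 and 32.5 FPKM. *Itgb5*, the other main beta partner of *Itgav*, was at 85.1 and 12.97 FPKM. Among genes of fusion and podosomes, 6 of 17 were higher and 1 was lower. Beyond the fusion receptors, *Mmp14*, a membrane-bound collagenase, stood at 2.22 and 41.8 FPKM, *Src*, the kinase that organises the sealing zone, at 0.319 and 37.1 FPKM and *Myo10*, a motor of membrane protrusions, at 5.29 and 23.3 FPKM. *Scin*, which encodes an actin-severing protein and is not on the list, was at 0.378 and 34.9 FPKM (log2 ratio 4.70).

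Of 36 genes of acid and ion transport, 1 was higher and 5 were lower, with a median of 0.09, which changed sign under median scaling (-0.06). *Car2*, the carbonic anhydrase that supplies protons, was the higher one on this list (0.432 and 23.8 FPKM). Of the isoforms of pump subunit a, *Tcirg1*, the osteoclast form, stood at 168 and 275 FPKM and *Atp6v0a1* at 62.6 and 7.83 FPKM (log2 ratio -2.85). Of those of subunit d, *Atp6v0d2*, which was higher but counted with the fusion genes, stood at 2.38 and 98.5 FPKM and *Atp6v0d1* at 107 and 71.0 FPKM. *Slc9b2*, a sodium and proton exchanger known from osteoclasts that is not on the list, was at 1.27 and 34.1 FPKM.

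**Figure D4:**
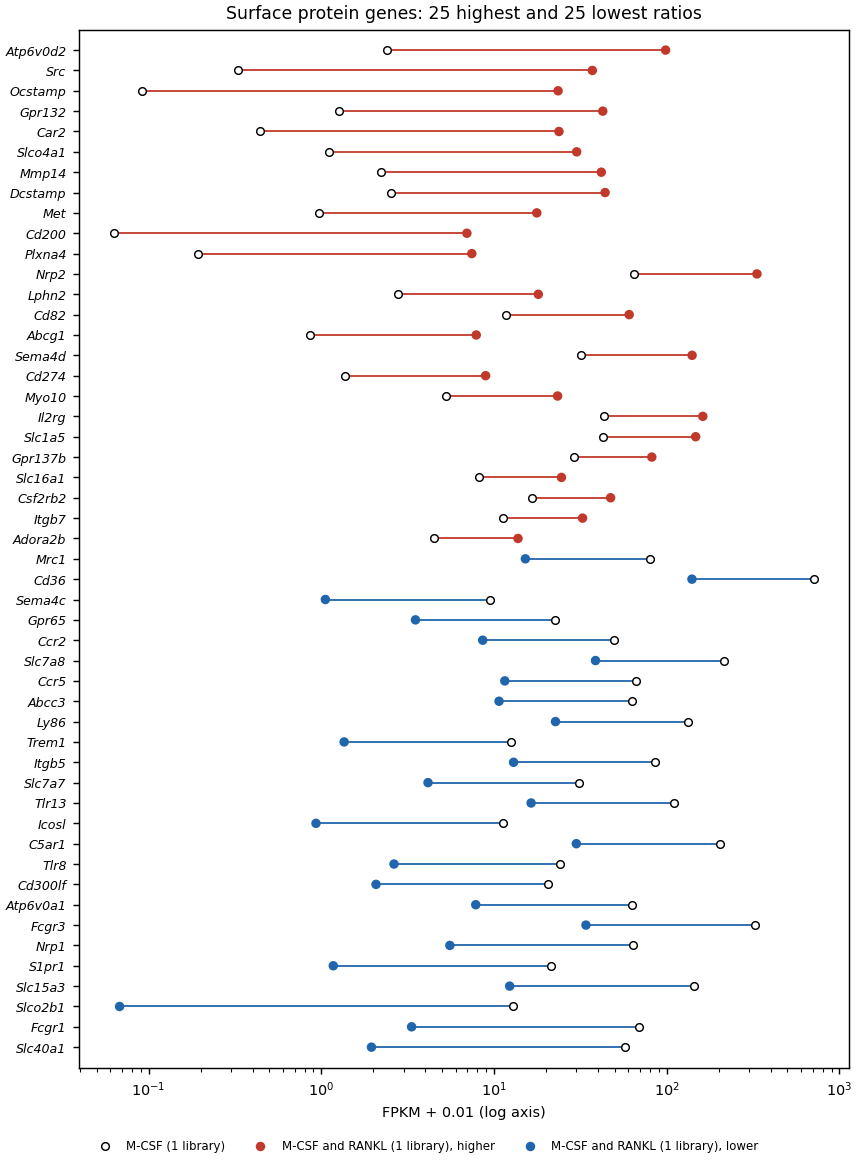
FPKM (log axis) of 50 listed surface protein genes that were 2-fold or more apart and reached 5 FPKM in either library, the 25 highest and the 25 lowest ratios. Open circles show the M-CSF library and filled circles the RANKL library, 1 library each. *Nrp1* and *Nrp2* share a level with M-CSF and lie apart in opposite directions with RANKL, and *Slco2b1* is near 0 with RANKL.

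Transporters of nutrients and metals gave 7 higher and 10 lower of 47. The organic anion transporters *Slco4a1* (1.10 FPKM under M-CSF and 30.1 FPKM under RANKL) and *Slco2b1* (12.9 and 0.0580 FPKM) stood at opposite ends. The glutamine carrier *Slc1a5* was at 42.6 and 147 FPKM, the lactate carrier *Slc16a1* at 8.23 and 24.6 FPKM and the arginine carrier *Slc7a1* at 12.1 and 28.3 FPKM. *Slc3a2*, the heavy chain shared by several amino acid exchangers, was at 200 and 73.6 FPKM, and its light chains divided, with *Slc7a5* at 21.1 and 47.6 FPKM, *Slc7a7* at 30.9 and 4.14 FPKM and *Slc7a8* at 213 and 38.7 FPKM. The glucose transporter *Slc2a1* stood at 33.1 and 29.6 FPKM. Of the surface lists not named so far, 1 gene was higher and 2 were lower of 15 TNF receptors, 1 and 13 of 27 ITAM adaptors and partner receptors, 1 and 3 of 16 tetraspanins, 7 and 13 of 29 other G-protein coupled receptors, and 2 and 8 of 19 immune ligands and antigen presentation genes. The peptide and histidine transporter *Slc15a3* of endosomes was at 143 and 12.3 FPKM.

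Among metabolic genes, the mitochondrial, one-carbon and nucleotide lists had medians above that of all genes, and the sterol, lipid and eicosanoid lists had medians below it. Of 376 listed genes, 22 (5.85%) were higher, close to the share over all genes (5.52%). In the other direction 56 (14.9%) were lower, against 6.98% of all genes. None of 68 respiratory chain subunits was 2-fold apart. Ratios were above 0 in 65 of them and above the median of all genes in 51 (median 0.33, or 0.18 above that of all genes). *Cyc1*, the cytochrome of complex III, stood at 113 and 199 FPKM. Of 29 genes of the citric acid cycle, 25 were above 0 and 22 were above the median of all genes (median 0.43). Among them 0 were higher and 1, the malic enzyme *Me1*, was lower (10.3 and 4.13 FPKM). Mitochondrial biogenesis gave 3 higher and 0 lower of 22 (median 0.69). These were the mitochondrial chaperonin genes *Hspd1* (129 and 374 FPKM) and *Hspe1* (120 and 268 FPKM) and the replicative helicase gene *Peo1* (2.54 and 8.64 FPKM).

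Glycolysis did not stand apart. Of 25 genes, 0 were higher and 2 were lower, with a median of 0.08 that changed sign under median scaling (-0.07). *Ldha* was at 454 FPKM under M-CSF and 682 FPKM under RANKL and *Hk2* at 13.1 and 12.3 FPKM. *Hk3*, the hexokinase of myeloid cells, was at 118 and 22.7 FPKM, and *Pfkfb4*, which makes a regulator of the pathway, at 12.6 and 5.05 FPKM.

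Genes of one-carbon and nucleotide synthesis were higher in part. Of 16 serine, glycine and one-carbon genes, 4 were higher and 0 were lower (median 0.46): *Shmt1* (9.40 and 24.9 FPKM), *Shmt2* (47.1 and 108 FPKM), *Gart* (31.4 and 69.8 FPKM) and *Mtr* (11.1 and 23.7 FPKM). Among 28 genes of nucleotide synthesis and salvage, 6 were higher and 4 were lower. The highest ratio was that of *Upp1*, which cleaves uridine (0.163 and 3.61 FPKM), and the higher ones also included the synthetic enzymes *Impdh2* (85.1 and 218 FPKM), *Cad* (17.2 and 39.8 FPKM) and *Pfas* (9.20 and 20.9 FPKM). The lower ones were breakdown and ectoenzyme genes, *Xdh* (33.3 and 11.7 FPKM), *Nt5e* (5.95 and 1.60 FPKM), *Entpd1* (3.14 and 0.465 FPKM) and *Ada* (27.2 and 12.4 FPKM). Polyamine synthesis showed *Srm* at 76.4 and 177 FPKM and *Sms* at 23.4 and 55.8 FPKM, while *Arg1*, which supplies ornithine, was at 17.2 and 1.62 FPKM. *Amd1* of the same pathway was at 3.50 and 0.00991 FPKM, but it has a near-identical copy between which reads can be split, and its value is uncertain. Of genes that make or use creatine, *Gatm* (39.5 and 18.6 FPKM) and *Ckb* (585 and 164 FPKM) were lower, and *Gamt* (19.8 and 9.87 FPKM) was just within 2-fold.

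Cholesterol synthesis gave 11 lower and 0 higher of 23 genes, all with ratios below 0 (median -0.94). They included *Hmgcs1* (28.8 FPKM under M-CSF and 11.7 FPKM under RANKL), an early enzyme of the path, *Fdps* (108 and 29.98 FPKM), the target of bisphosphonate drugs, and *Sqle* (46.3 and 16.1 FPKM). *Insig1*, which is itself controlled by sterols, stood at 31.4 and 6.42 FPKM, and *Srebf2*, the main regulator of the path, at 49.3 and 26.0 FPKM. The window of *Hmgcs1* is shown as it holds a match to a sterol response element (TCACNCCAC on either strand, in capitals) that starts 137 bases before the start. It lies at chr13:119690101-119690350 (+ strand) on GRCm38.p6, from RefSeq.
Hmgcs1: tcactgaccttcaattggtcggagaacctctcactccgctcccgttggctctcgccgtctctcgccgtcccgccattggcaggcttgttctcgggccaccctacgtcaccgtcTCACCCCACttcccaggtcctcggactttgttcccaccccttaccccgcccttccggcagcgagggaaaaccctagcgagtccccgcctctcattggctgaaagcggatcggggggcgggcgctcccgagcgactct
These letters were in 1 of the 16 cholesterol synthesis genes with a window and in 0.999% of all windows. *Ch25h*, which turns cholesterol into an oxysterol, was at 65.4 and 2.24 FPKM (log2 ratio -4.36), and the lipid droplet gene *Plin2* at 408 and 154 FPKM, whereas the sterol exporter gene *Abcg1* stood at 0.854 and 7.88 FPKM.

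Redox genes were split by enzyme. Of 39 genes, 2 were higher and 9 were lower. *Gstt1*, a glutathione transferase, stood at 0.171 FPKM under M-CSF and 23.8 FPKM under RANKL (log2 ratio 4.41). Among NADPH oxidase genes *Nox1* was at 0.0605 and 7.49 FPKM, *Cybb*, which encodes the phagocyte form NOX2, at 96.8 and 54.2 FPKM and its regulator *Ncf1* at 136 and 44.6 FPKM. The stress genes *Hmox1* (521 and 78.7 FPKM), *Gclm* (216 and 58.6 FPKM), *Mgst1* (83.2 and 16.7 FPKM) and *Prdx1* (1647 and 779 FPKM) were lower, while *Txnrd1*, which shares their regulator NRF2, was at 202 and 311 FPKM. For iron, the exporter gene *Slc40a1* was lower (57.4 and 1.94 FPKM), as were *Trf* (43.4 and 14.6 FPKM), which encodes transferrin, and *Hfe* (23.2 and 8.09 FPKM). *Ncoa4*, a receptor for ferritin breakdown, was higher (24.8 and 50.7 FPKM), and the uptake gene *Tfrc* (51.9 and 95.3 FPKM) was within 2-fold. Of 23 prostaglandin, leukotriene and sphingolipid genes, 8 were lower and 1 was higher. *Alox5ap*, which leukotriene synthesis needs, was at 846 and 268 FPKM, the thromboxane synthase *Tbxas1* at 73.9 and 17.4 FPKM and the prostaglandin D2 synthase *Hpgds* at 33.5 and 4.34 FPKM. *Ptges2*, a prostaglandin E synthase, was the higher one (7.82 and 16.8 FPKM). The remaining metabolism lists gave 3 higher and 4 lower of 23 amino acid and urea genes, 1 and 8 of 23 genes of sterol efflux, oxysterols and lipid droplets, 1 and 4 of 17 of fatty acid synthesis, 0 and 1 of 23 of fatty acid oxidation (median 0.05, and -0.09 after median scaling), and 1 and 6 of 20 of iron and heme.

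**Figure D5:**
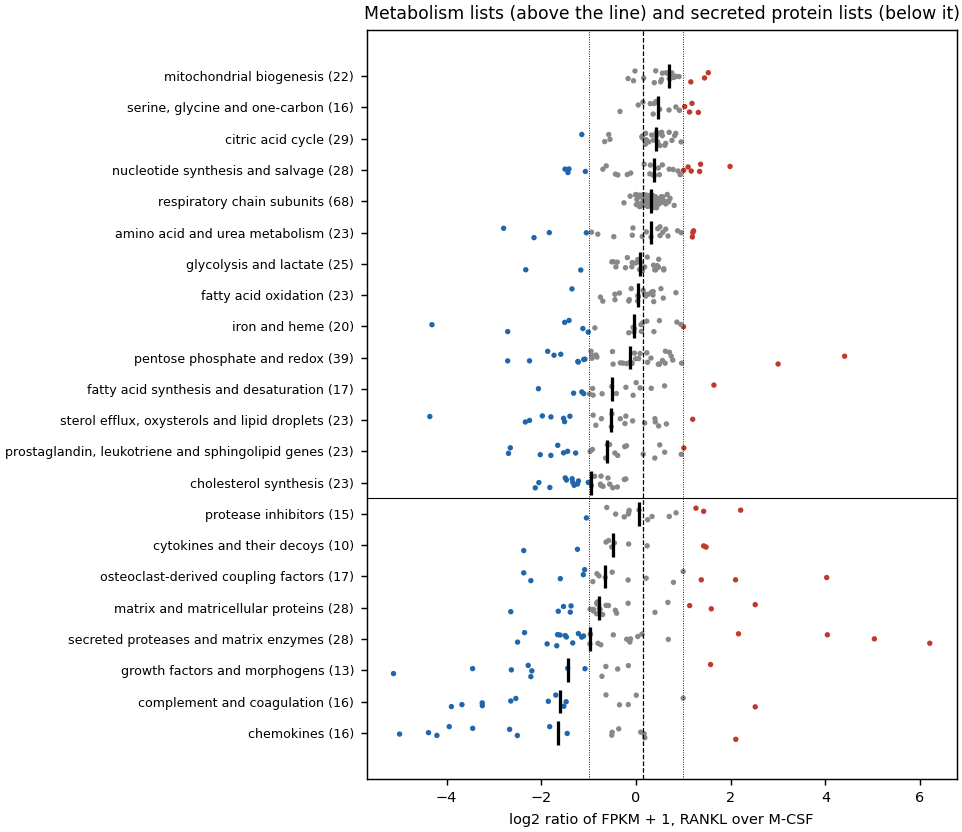
Log2 ratios of FPKM + 1, RANKL over M-CSF, of the genes in the metabolism lists and the secreted protein lists, with the number of genes compared in brackets. Points are genes (red and blue beyond 2-fold, height within a line is random), black bars are list medians, the dashed line is the median of all genes (0.14) and dotted lines mark 2-fold. The respiratory chain genes form a tight group right of 0, and cholesterol synthesis, complement and chemokine genes lie on the left.

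Of 137 listed genes of secreted proteins, 17 (12.4%) were higher and 49 (35.8%) were lower, against 5.52% and 6.98% of all genes. Several higher ligands were near 0 in M-CSF cells. *Vegfc*, a growth factor of lymphatic vessels that binds neuropilin-2, stood at 0.0170 FPKM under M-CSF and 15.6 FPKM under RANKL, and *Pgf*, another member of the VEGF family, at 0.134 and 10.6 FPKM. *Il34*, the other ligand of the M-CSF receptor, was listed at 0 with M-CSF and at 8.76 FPKM with RANKL. *Thbs1*, a matrix protein that activates TGF-beta, was at 7.49 and 47.6 FPKM, *Pdgfa* at 7.47 and 21.0 FPKM and *Hbegf* at 0.158 and 2.45 FPKM. *Anxa1*, an anti-inflammatory annexin, was at 201 and 607 FPKM, the decoy *Il1rn* at 12.5 and 36.7 FPKM and *Mif* at 234 and 633 FPKM.

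Chemokines were lower in 9 of 16 genes and higher in 1, *Cxcl10* (3.25 FPKM under M-CSF and 17.3 FPKM under RANKL). The family was uneven even among neighbours on chromosome 11: *Ccl2* stood at 1234 and 79.2 FPKM and *Ccl3* at 25.5 and 6.49 FPKM, whereas *Ccl9* (163 and 175 FPKM) and *Ccl5* (5.77 and 6.62 FPKM) were within 2-fold. Of 13 genes on the list of growth factors and morphogens, 8 were lower and 1, *Hbegf*, was higher (median -1.44). The lower ones included *Rnase4* and *Ang*, overlapping genes described below that are not independent examples. *Vegfc* and *Pdgfa* were counted with the coupling factors, and *Pgf* and *Il34* were on no list. *Igf1* stood at 152 and 31.9 FPKM and *Igfbp4*, which binds it, at 154 and 24.0 FPKM. *Gas6*, a ligand of TAM receptors that bridges them to dying cells, was at 82.1 and 5.50 FPKM (log2 ratio -3.68), the related ligand *Pros1* at 9.15 and 2.14 FPKM and the receptor gene *Axl* at 8.71 and 4.71 FPKM. *Spp1*, the bone matrix protein osteopontin, stood at 6298 and 1216 FPKM. Of 28 secreted proteases and matrix enzymes, 4 were higher and 12 were lower. The higher *Ctsk* (3.60 and 338 FPKM) was set against lower genes of other lysosomal proteases, *Ctsd* (3904 and 1237 FPKM), *Ctsb* (1850 and 655 FPKM) and *Lgmn* (593 and 104 FPKM). Among protease inhibitors, *Serpinb8* (8.10 and 41.1 FPKM), *Spint1* and *Spint2* were higher and *Timp2* (50.3 and 23.8 FPKM) was lower. The list median of 0.06 changed sign under median scaling (-0.08). *Serpinb6b*, not on the list, was at 2.66 and 52.3 FPKM. The other secreted lists gave 3 higher and 5 lower of 17 coupling factors, 2 and 2 of 10 cytokines and decoys, 1 and 10 of 16 complement and coagulation genes, and 3 and 5 of 28 matrix proteins.

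*Rnase4*, a secreted ribonuclease, had the lowest ratio of all named genes, with 200.01 FPKM under M-CSF and 4.77 FPKM under RANKL (log2 ratio -5.12). *Ang*, which encodes angiogenin, overlaps it and shares a RefSeq start with it on chromosome 14, and stood at 19.5 and 0.870 FPKM. Both transcripts of *Rnase4* (186 and 4.36 FPKM, and 13.9 and 0.412 FPKM) and of *Ang* (16.3 and 0.763 FPKM, and 3.15 and 0.107 FPKM) were lower. Since the annotated positions of both genes overlap, reads from the shared part cannot be told apart. The shared upstream sequence at chr14:51090827-51091076 (+ strand, GRCm38.p6, RefSeq) is shown because it precedes the start of both genes, and nothing in it is marked.
Rnase4 and Ang: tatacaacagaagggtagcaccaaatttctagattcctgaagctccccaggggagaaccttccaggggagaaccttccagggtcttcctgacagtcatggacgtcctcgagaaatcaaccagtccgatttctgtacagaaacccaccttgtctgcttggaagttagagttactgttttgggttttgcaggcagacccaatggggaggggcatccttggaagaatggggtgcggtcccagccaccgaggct

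Called genes that lie next to each other, among the genes compared, formed runs in both directions. The longest run of higher genes had 7 members at chr10:75646110-75860277 and held *Cabin1*, *Ddt*, *Gstt3*, *Gstt1*, *Gstt4*, *Gstt2* and *Mif*. *Ddt*, a relative of *Mif*, stood at 18.9 FPKM under M-CSF and 99.2 FPKM under RANKL, *Gstt3* at 1.06 and 8.89 FPKM and *Gstt2* at 2.23 and 13.5 FPKM. The glutathione transferase genes are related, and reads may be shared among them. A run of 3 at chr2:28513089-28621982 held *Ralgds*, *Gtf3c5* and *Gfi1b*, with log2 ratios from 2.82 to 2.96. Lower runs held receptor families. A run of 7 at chr11:114982443-115181178 held *Cd300ld*, *Cd300lh*, *Cd300e* and *Cd300lf*, and another of 7 at chr17:48151896-48352276 held *Trem1*, *Trem3*, *Treml4*, *Treml2* and *Trem2*. In the last, *Trem2*, a receptor that signals through the adaptor encoded by *Tyrobp*, stood at 499 and 164 FPKM and *Trem1* at 12.6 and 1.35 FPKM. Runs of 3 held *Rgs2*, *Rgs1* and *Rgs18* on chromosome 1, regulators of G-protein signalling, and the tetraspan genes *Ms4a6c*, *Ms4a6b* and *Ms4a6d* on chromosome 19. Such related neighbours are not independent examples.

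None of 32 genes of DNA replication and mitosis was 2-fold apart (median 0.24), with *Mki67* at 73.8 and 71.9 FPKM and *Top2a* at 98.6 and 105 FPKM. All 33 cytosolic ribosomal protein genes were above 0 and none was 2-fold apart (median 0.46, or 0.31 above the median of all genes). Of 24 interferon-stimulated genes, 1 was higher and 0 were lower (median -0.17).

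Across the other libraries, levels with IL-3 are given beside those with RANKL alone for a few members. They share the RANKL-treated control culture with the comparison above, and nothing is inferred from the match. *Jdp2* stood at 12.8 FPKM under M-CSF and 462 FPKM under RANKL, and with IL-3 added it was at 35.8 FPKM in control cells and 276 FPKM in cKO cells. In that order *Sdc1* was at 6.16, 113, 12.4 and 73.1 FPKM and *Serpinb6b* at 2.66, 52.3, 2.84 and 39.0 FPKM. Higher genes did not all follow this course. *Ralgds* was at 1.42, 17.8, 19.9 and 15.9 FPKM, *Pgf* at 0.134, 10.6, 7.64 and 5.50 FPKM, and *Il1rn* at 12.5, 36.7, 139 and 33.0 FPKM. Among lower genes, *Nrp1* stood at 64.1, 5.54, 25.5 and 9.51 FPKM, *Cx3cr1*, the fractalkine receptor, at 68.0, 15.1, 3.26 and 19.7 FPKM and *Hpgd*, which inactivates prostaglandins, at 10.1, 0.767, 0.634 and 0.716 FPKM. Of the 4 libraries, M-CSF alone was thus the only one with more than 1 FPKM of *Hpgd*. *Eif3j1* was excluded from these descriptions, as it stood at 14.4 FPKM with RANKL and at 0.0357 to 0.0428 FPKM in the others and has a near-identical copy.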

How the data were processed

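Bulk RNA of 4 libraries, 1 per condition, was measured by the authors with a TruSeq RNA kit on a HiSeq2000 system. According to the submitters' processing notes and the methods, reads were aligned to mm10 with TopHat2 2.0.13, and Cufflinks 2.2.1 gave values per RefSeq transcript, which were deposited as 1 table. The values deposited by the authors were taken as FPKM, fragments scaled by their software to transcript length and library size, since the header names no unit. The methods give mice of 6 weeks for osteoclast cultures, while the labels give 8 weeks.

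For this report, 33170 transcripts were summed to genes, and 29 small RNA and ribosomal RNA genes were left out by symbol. Log2 ratios of FPKM + 1 were taken without scaling (Python 3.11.15, pandas 2.3.3, numpy 2.4.6, matplotlib 3.10.9). Depth was estimated from the steps that 1 fragment makes in low values of genes with 1 transcript of at least 3000 nt, where 69.4% to 70.6% of values lay within 0.2 of a whole step. The 95% half-widths follow from that depth. The ratio step was tested on simulated data. Gene positions are from RefSeq tables and GENCODE M21 on GRCm38.

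A total of 48 lists in 4 classes, with 994 distinct genes compared, and 11 lists of markers and cell states were used, and 1444 of 1446 entries were found. The members and lists were chosen with earlier results of these data known. By rule, the 15 highest and 15 lowest ratios, the 8 highest and 8 lowest per class, both at 5 FPKM or more and without predicted genes, and up to 4 genes per list were named (218 genes), and not all are printed. Other named genes were chosen after their values were seen, and so were the genes shown by transcript, the motifs and the promoters. Alternatives were another pseudocount, scalings, minimums, thresholds, small RNA genes kept, and the most abundant transcript per gene. Some genes on these lists are counted but not reported here by name.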

Additional observations from a re-analysis of the deposited data

How the results depend on the processing

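With a 1.5-fold threshold, 1675 genes were higher and 1482 were lower with RANKL, and with a 4-fold threshold 124 and 162. Other alternatives kept both counts within 1.5 times: 797 and 956 genes with 0.1 FPKM added, 431 and 952 after median scaling, 532 and 781 after upper quartile scaling, 470 and 625 at a minimum of 5 FPKM, 595 and 750 with small RNA genes kept, and 589 and 740 with the most abundant transcript. Of 177 named genes that were 2-fold apart, 173 stayed so in the same direction after median scaling. The number was 175 after upper quartile scaling and 175 with the most abundant transcript. These genes were named by rule for large ratios in these same data, so the counts do not show how stable other genes are. With 0.1 FPKM added all 177 stayed, which was fixed in advance, since a smaller added value can only widen a ratio. The medians of glycolysis, fatty acid oxidation, protease inhibitors and acid transport changed sign under median scaling. No paired analysis was possible because each condition has 1 library, so that no replicate could be left out. The counting half-width was at most 0.37 in the 1294 called genes with known transcript lengths. Their ratios all exceeded it, which follows from the 2-fold threshold and is no separate check. Of these genes, 221 lay within their half-width of the threshold.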

Other observations

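A few gene groups outside the lists were read by symbol pattern after their values had been seen, so they are given as values only. Of 10 nucleolar genes (*Ncl*, *Fbl*, *Npm1* and the *Nop* genes), which serve ribosome assembly, 6 were higher with RANKL, 0 were lower and all 10 had ratios above 0 (median log2 ratio 1.08, against 0.14 for all genes). *Npm1* stood at 450 FPKM under M-CSF and 1260 FPKM under RANKL and *Ncl* at 92.5 and 258 FPKM. Of 5 subunit genes of RNA polymerase I, 1, *Polr1b*, was higher (10.5 and 29.8 FPKM). All 8 genes of the CCT chaperonin, which folds actin and tubulin, were above 0 and none was 2-fold apart (median 0.65). Of 18 genes of proteasome core subunits, 1 was higher and 0 were lower (median 0.24). The higher one was *Psmb7*, at 167 and 354 FPKM. Of 7 TRAF genes, *Traf1*, *Traf2* (8.48 and 22.4 FPKM) and *Traf3* (7.59 and 17.1 FPKM) were higher.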
